A study of Mus musculus with 6 samples.

Results

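The genes described here encode matricellular proteins and fibulins: Tgfbi, Postn, Tnc, Thbs1, Thbs2, Sparc, Ccn1, Ccn2, Fbln2 and Fbln7. They were chosen by name from a written list, made with earlier results of these data known. Every probe set annotated to a listed symbol was taken. Each of the 10 genes had 1 probe set, out of 19938 genes with a probe set of 1 symbol. RNA came from wild type C2C12 cells, a long-established line of mouse myoblasts, which fuse into myotubes when serum is low. The cells were moved to differentiation medium and transfected at day 1 of differentiation with a control siRNA (siCon) or with an siRNA against mouse H19 (simH19), and total RNA was taken 40 h later. Each group had 3 arrays (Affymetrix whole-transcript labelling), and both groups share the line, the differentiation medium and the transfection. H19 is an imprinted long noncoding RNA, and the comparison asks how these genes were expressed when it was depleted in differentiating muscle cells. The labels do not say whether the triplicates were separate cultures. The p-values therefore reflect only how much these samples spread, which may be technical.

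Matricellular proteins are secreted into the extracellular matrix but mostly do not build its fibres. They bind collagens, fibronectin, growth factors and cell-surface receptors such as integrins, and so modulate adhesion, migration and signalling. In skeletal muscle many of them are produced during development and regeneration, and several are induced by TGF-beta or by the mechanosensitive YAP and TEAD regulators. Fibulins are secreted glycoproteins with calcium-binding EGF-like repeats that associate with basement membranes and elastic fibres.

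The deposited values are log2 expression values, and a difference below is the mean of the H19 siRNA arrays minus the mean of the control arrays, in log2 units, with the moderated standard error (SE) of limma. A gene is called when its limma p, adjusted by Benjamini-Hochberg over all 21559 units tested, is under 0.05. A unit is 1 gene, or 1 probe set that carries several symbols. H19 had no probe set of its own, and the signal closest to it came from a probe set annotated to Mir675, a microRNA inside the H19 gene, and Supt6. It read 12.21, 12.22 and 12.27 in the controls against 10.38, 10.28 and 10.37 after H19 siRNA. That probe set was thus at 26.9% of its control level with H19 siRNA (limma adjusted p = 1.80e-05). Arrays correlated with each other at a Pearson's r between 0.9958 and 0.9975 over all rows, and the second H19 siRNA array had the lowest mean r to the others (0.9962).

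Fbln7 was the only called gene of the 10: it rose 1.23-fold with H19 siRNA. The others differed by less. Tgfbi and Thbs2 read lower and Tnc and Postn higher on every H19 siRNA array without passing the test, and Thbs1, Sparc, Ccn1, Ccn2 and Fbln2 differed by less than 0.04. Because the members were chosen with earlier results of these data known, the shares below describe them and are no test of an excess. Of the 10 members 1 was called, against 0.199% of all units. An unadjusted limma p under 0.05 was reached by 5 members (3 higher, 2 lower), against 10.9% of all units. The groups did not overlap for 7 of 10 members (5 higher, 2 lower), against 17.6% of all units and 23.9% of units whose mean over the 6 arrays was at or above the median. All 10 members lay at or above that median. Their median difference was 0.0357, beside a median of 0.0137 over all units, and 7 of 10 were positive, beside 58.0% of all units. The members therefore went both ways, and the SD within a group ran from 0.0055 to 0.0535 log2 units over the 10 genes.

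**Figure D1:**
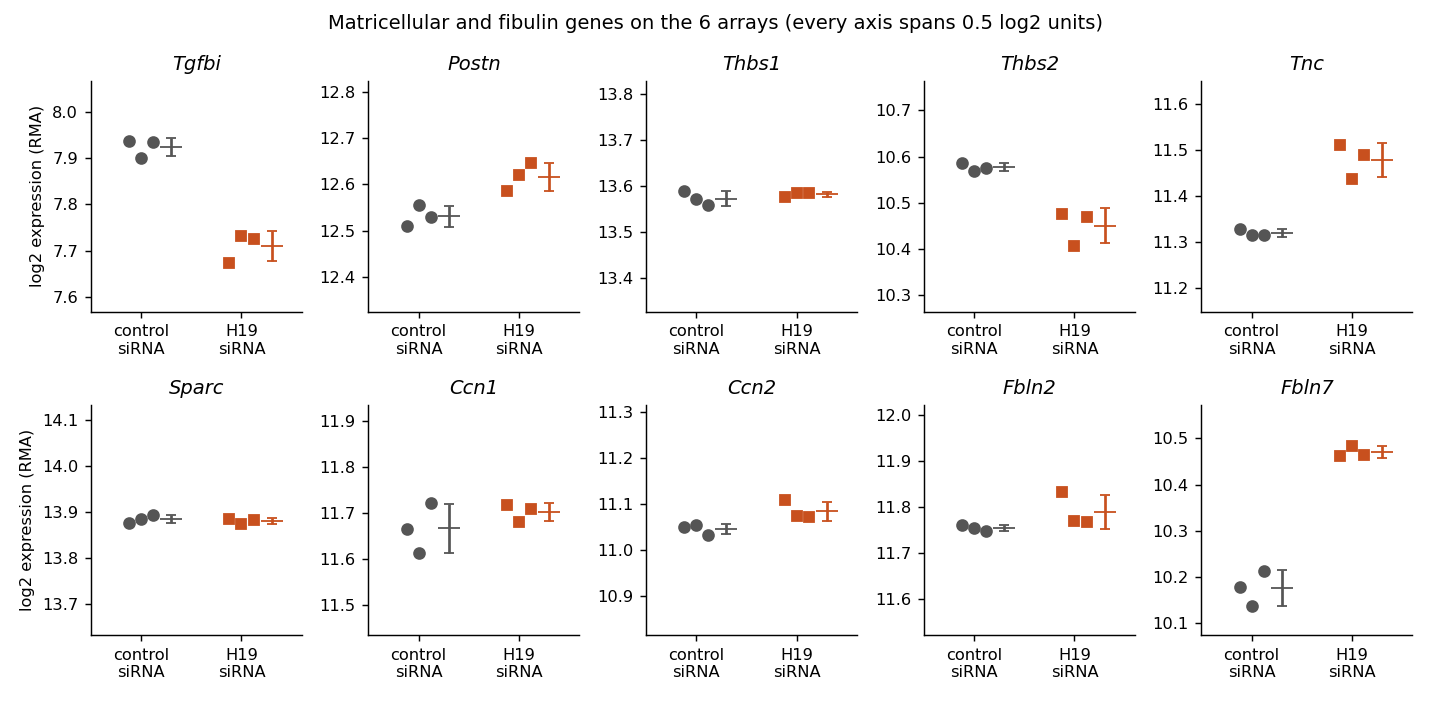
Log2 expression (RMA) of the 10 genes on each of the 3 control siRNA arrays (grey circles) and the 3 H19 siRNA arrays (orange squares), with the mean and SD of each group to the right of its points; every vertical axis spans 0.5 log2 units and is set separately for each gene. Fbln7 lies higher and Tgfbi lower on every H19 siRNA array, and the Thbs1, Sparc and Ccn1 groups overlap.

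Among the fibulins, Fbln7 rose and Fbln2 did not pass the test. Fbln7, fibulin 7, is a short cell-adhesion fibulin. It read 10.18, 10.14 and 10.21 in the controls against 10.46, 10.48 and 10.47 after H19 siRNA. The lowest H19 siRNA array lay above the highest control array, and the spread within each group was small (SD 0.0387 and 0.0123, n = 3 each). The difference was 0.29 (SE 0.04, 95% interval 0.21 to 0.38), with a limma adjusted p of 0.0425. Fbln2, a fibulin of basement membranes and elastic tissue, read 11.76, 11.75 and 11.75 in the controls against 11.83, 11.77 and 11.77 after H19 siRNA. Its groups did not overlap, but the H19 siRNA values spanned more than their distance from the controls, and the difference of 0.0359 (95% interval -0.05 to 0.12) had a limma adjusted p of 0.757.

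The Fbln7 call lay close to the threshold and needed all 6 arrays. Its adjusted p in limma was 0.233, 0.236 and 0.169 without control siRNA replicates 1, 2 and 3. It was 0.194, 0.103 and 0.170 without H19 siRNA replicates 1, 2 and 3. The call was also lost after centring each array on its median (0.0670), after a second quantile normalisation (0.0520) and when all 35556 rows were tested (0.129). The difference ran from 0.27 to 0.31 over all 15 alternatives, of which only scaling, array weights and leaving out an array could change it. Fbln7 passed most clearly with an intensity trend and robust variance (3.02e-04) and when only units at or above the median level were kept (0.00496). It also passed with the mean of the probe sets of a gene (0.0419), where its values are the same as in the main fit.

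TGFBI and periostin are related secreted proteins built from fasciclin domains, and both bind integrins and collagen. Tgfbi, named for its induction by TGF-beta, read 7.94, 7.90 and 7.93 in the controls against 7.67, 7.73 and 7.73 after H19 siRNA. No H19 siRNA array came near the control range. The difference of -0.21 (SE 0.03, 95% interval -0.30 to -0.13) is the lowest of the 10 genes and left 86.2% of the control signal. It did not pass over all units (limma adjusted p = 0.0965), but it did where dim units were left out, at 0.0445 with a filter at the 30th percentile and 0.0143 with a filter at the median. Postn, periostin, a protein of healing and remodelling connective tissue, read 12.51, 12.55 and 12.53 in the controls against 12.59, 12.62 and 12.65 after H19 siRNA. All H19 siRNA arrays were higher, by a mean of 0.09 (SE 0.03, 95% interval 0.0038 to 0.17), with a limma adjusted p of 0.439.

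The thrombospondins are large calcium-binding glycoproteins. Thrombospondins 1 and 2 inhibit angiogenesis through CD36 and bind CD47, and thrombospondin 1 also activates latent TGF-beta. Thbs1 read 13.59, 13.57 and 13.56 in the controls against 13.58, 13.59 and 13.59 after H19 siRNA. These groups overlapped, and the difference of 0.0094 had a 95% interval from -0.06 to 0.08 (limma adjusted p = 0.938). It turned to -0.0130 with each array centred on its median and to -0.0088 after a second quantile normalisation. Thbs2 read 10.59, 10.57 and 10.58 in the controls against 10.48, 10.41 and 10.47 after H19 siRNA. Every H19 siRNA array was lower, and the second was the lowest. The Thbs2 difference was -0.13 (SE 0.03, 95% interval -0.21 to -0.04), with a limma adjusted p of 0.266.

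Tenascin C, a large multi-armed glycoprotein of embryonic and regenerating tissue that loosens cell attachment to fibronectin, is encoded by Tnc. It read 11.33, 11.32 and 11.32 in the controls against 11.51, 11.44 and 11.49 after H19 siRNA. The control arrays were nearly identical and all H19 siRNA arrays lay above them, the second closest to the controls. The Tnc difference was 0.16 (SE 0.03, 95% interval 0.08 to 0.24), a 1.12-fold higher mean, with a limma adjusted p of 0.189. With an intensity trend and robust variance the adjusted p was 0.00547, and with a filter at the median it was 0.0359.

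SPARC, osteonectin, is a collagen-binding chaperone of matrix assembly. Sparc read 13.88, 13.88 and 13.89 in the controls against 13.88, 13.87 and 13.88 after H19 siRNA. The groups overlapped, and the Sparc difference of -0.0050 had a 95% interval from -0.08 to 0.07 (limma adjusted p = 0.968). It was the smallest difference in size among the 10 genes.

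CCN1 (CYR61) and CCN2 (CTGF) are integrin-binding secreted proteins and textbook targets of YAP and TEAD. Ccn1 read 11.67, 11.61 and 11.72 in the controls against 11.72, 11.68 and 11.71 after H19 siRNA. The range of the controls enclosed all H19 siRNA values, and the SD of the Ccn1 controls (0.0535) was the widest of the 10 genes. The Ccn1 difference was 0.0355 (95% interval -0.06 to 0.13; limma adjusted p = 0.789). It rested on single control arrays, at 0.0089 without control siRNA replicate 2 and 0.0624 without control siRNA replicate 3. Ccn2 read 11.05, 11.05 and 11.03 in the controls against 11.11, 11.07 and 11.07 after H19 siRNA. Its groups did not overlap, yet the gap was narrow, and the difference of 0.0383 (95% interval -0.04 to 0.11) had a limma adjusted p of 0.713. Both intervals include 0.

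Related members were also set against each other within each array, in 4 pairs chosen after the values were seen. These ratios restate the values above and are a description, with no test. Their SE is the ordinary SE of the difference between the group means, not the moderated SE of limma. The log2 ratio of Fbln7 to Fbln2 was higher by 0.26 (SE 0.04) with H19 siRNA. The ratio of Tgfbi to Postn was lower, with a difference of -0.30 (SE 0.03), and that of Thbs2 to Thbs1 was lower too, with a difference of -0.14 (SE 0.02). In these 3 pairs the ratios of the groups of arrays did not overlap. The ratio of Ccn1 to Ccn2 differed by -0.0028 (SE 0.04), and its groups overlapped.

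**Figure D2:**
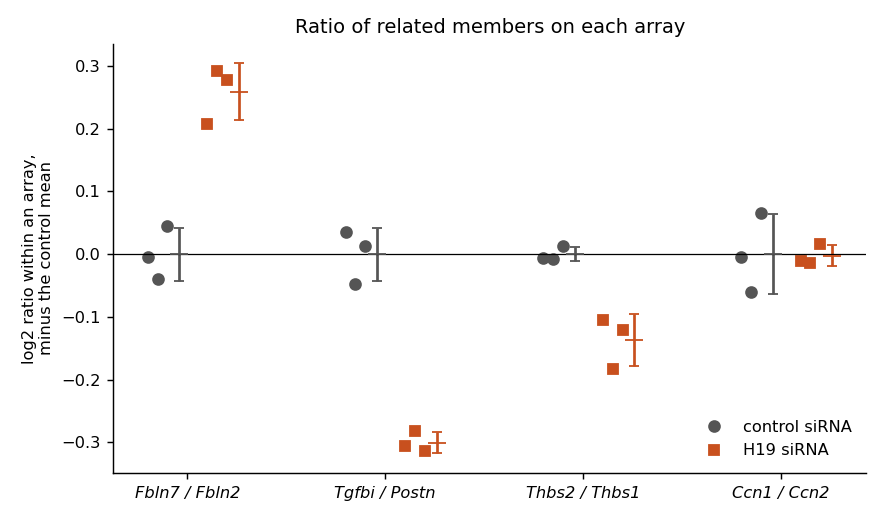
Log2 ratio of paired members on each array, minus the mean of the control arrays, for control siRNA (grey circles) and H19 siRNA (orange squares), with mean and SD of 3 arrays beside the points. The H19 siRNA ratios lie above the controls for Fbln7 to Fbln2, below them for Tgfbi to Postn and Thbs2 to Thbs1, and among them for Ccn1 to Ccn2.

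Promoter windows of 300 bases, from 250 before to 50 after an annotated start, were read from RefSeq (GRCm38.p6) for 8 of the 10 genes, 10 windows in all. Thbs1 and Ccn2 had no entry. Shown are Fbln7, as the called gene, Tgfbi, as the gene with the lowest difference, and Ccn1, which shares a motif with Fbln7 but did not differ between the groups beyond their spread. Capitals mark matches, on either strand, to the TEAD core GGAATG, which is printed as its reverse complement CATTCC in both windows. They also mark the SMAD-binding letters CAGAC, printed as GTCTG where the match lies on the other strand, and the TATA box letters TATAAA. The E-box searched was CAGCTG, which reads alike on both strands. The Fbln7 window lies at chr2:128863682-128863981 (plus strand), the Tgfbi window at chr13:56609336-56609635 (plus strand) and the Ccn1 window at chr3:145649936-145650235 (minus strand).
Fbln7: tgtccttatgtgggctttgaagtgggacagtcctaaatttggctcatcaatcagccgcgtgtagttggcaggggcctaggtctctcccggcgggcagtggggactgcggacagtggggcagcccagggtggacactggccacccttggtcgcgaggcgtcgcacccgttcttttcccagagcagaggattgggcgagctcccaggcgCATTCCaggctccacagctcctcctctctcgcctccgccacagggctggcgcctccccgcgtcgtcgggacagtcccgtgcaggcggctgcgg
Tgfbi: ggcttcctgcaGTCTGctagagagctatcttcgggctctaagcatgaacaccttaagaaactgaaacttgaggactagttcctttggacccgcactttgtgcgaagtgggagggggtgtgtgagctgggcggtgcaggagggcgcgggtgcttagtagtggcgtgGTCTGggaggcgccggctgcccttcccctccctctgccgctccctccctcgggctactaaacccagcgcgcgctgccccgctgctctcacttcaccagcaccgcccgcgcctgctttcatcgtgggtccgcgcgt
Ccn1: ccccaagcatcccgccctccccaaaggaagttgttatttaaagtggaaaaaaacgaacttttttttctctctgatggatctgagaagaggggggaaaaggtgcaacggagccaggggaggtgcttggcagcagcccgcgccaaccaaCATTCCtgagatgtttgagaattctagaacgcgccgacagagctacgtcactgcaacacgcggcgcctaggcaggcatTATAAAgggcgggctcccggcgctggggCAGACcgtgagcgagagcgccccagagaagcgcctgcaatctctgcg

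The TEAD core began 43 bases before the start of Fbln7 and 103 bases before that of Ccn1, on the other strand in both, and was in 2 of the 10 windows. It occurs in 14.7% of all 32851 such windows. CAGAC was in 7 of the 10 windows, of Tgfbi, Postn, Tnc (both windows), Thbs2, Sparc and Ccn1, beside 49.6% of all windows, and the Tgfbi window holds it 85 and 239 bases before the start. TATAAA was in 5 of the 10, of Postn, Tnc (both windows), Thbs2 and Ccn1, beside 13.6% of all windows. It began 26 bases before the start in Postn and 25 in Ccn1. In Thbs2 it lay 126 bases before the start, on the other strand, and in the Tnc windows 126 and 205 bases before. The Tnc windows overlap, so they share some matches. CAGCTG was in the Sparc window only, beside 16.3% of all windows, and the AP-1 letters TGACTCA, or in their other form TGAGTCA, were in 0, beside 5.20%. No match overlapped a match to another of these motifs. A match is a string of letters, not a measured binding site.

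Other members of the same families also went both ways without a call. Of 30 listed relatives 28 had a probe set of their own, 16 with a positive and 12 with a negative difference, with a median of 0.0186 beside 0.0137 over all units. In limma 0 passed over all units. An unadjusted limma p under 0.05 was reached by 5 (3 higher, 2 lower), or 17.9%, against 10.9% of all units. The groups did not overlap for 6 (3 higher, 3 lower), or 21.4%, against 17.6% of all units. Within the CCN family Ccn4 (WISP1), a Wnt-induced member, read 11.67, 11.65 and 11.70 in the controls against 11.85, 11.84 and 11.83 after H19 siRNA. Ccn3 (NOV) lay on the other side, at 8.95, 8.96 and 8.85 against 8.70, 8.77 and 8.69. So the CCN genes ranged from a difference of -0.21 for Ccn3 (SE 0.04, limma adjusted p = 0.186) to 0.17 for Ccn4 (SE 0.03, limma adjusted p = 0.144). Ccn1 and Ccn2 lay near 0, and Ccn5 and Ccn6 differed by 0.10 and 0.11 (limma adjusted p = 0.309 and 0.767). Only Ccn3 had a negative difference among the measured CCN genes. Fbln1, a fibulin that binds fibronectin, read 10.65, 10.68 and 10.68 in the controls against 10.52, 10.48 and 10.50 after H19 siRNA, a difference of -0.16 (limma adjusted p = 0.148) opposite in sign to that of Fbln7. Ccn4 and Fbln1 passed with an intensity trend and robust variance together (limma adjusted p = 0.00133 and 0.00817), and both of them and Ccn3 passed with a filter at the median. Of the 28 relatives 15 lay below the median level of all units.

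**Figure D3:**
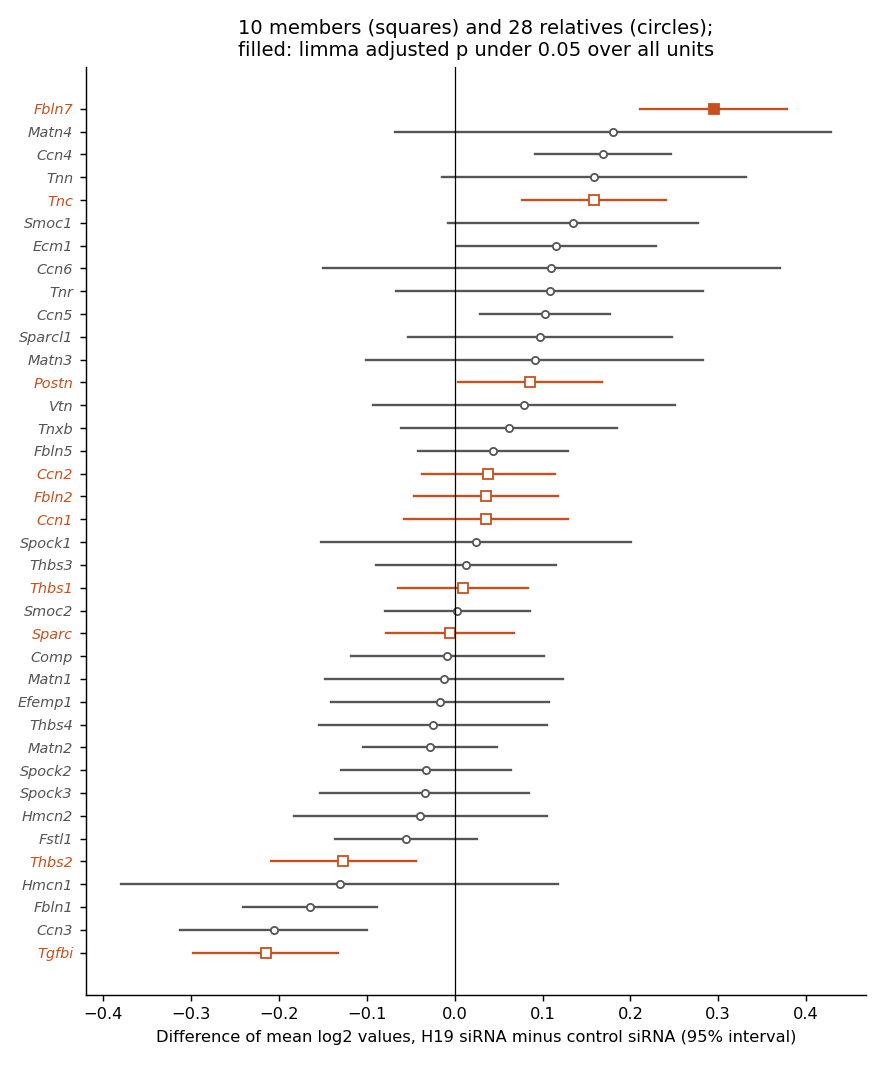
Difference between the group means on the log2 scale (H19 siRNA minus control), with its 95% interval, for the 10 members (orange squares) and 28 relatives (grey circles), ordered by size; a filled symbol marks a limma adjusted p under 0.05 over all units. Fbln7 at 0.29 is the only filled symbol, and Tgfbi at -0.21 and Ccn3 at -0.21 lie at the other end.

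None of the listed cell-surface receptors of these proteins passed the test. All 20 listed receptors were measured, 9 with a positive and 11 with a negative difference and a median of -0.0092. In limma 0 passed, and 2 (10%) had an unadjusted p under 0.05, against 10.9% of all units. For 6 receptors (3 higher, 3 lower), or 30%, the groups did not overlap, against 17.6% of all units. Of the 20 receptors 5 lay below the median level of all units, Cd36 among them. Egfr, the epidermal growth factor receptor, which EGF-like repeats of tenascin C can engage, differed by -0.22 (SE 0.05, limma adjusted p = 0.177), and its groups did not overlap. Egfr passed with an intensity trend and robust variance together (0.00762) and with a filter at the median (0.0424). Itgb3, an integrin chain that pairs with integrin alpha V to bind many of these ligands, differed by -0.09 (limma adjusted p = 0.421), and Itga3, a laminin-receptor chain, by 0.11 (0.464). Among 19 measured structural partners 12 were positive and 7 negative, with a median of 0.0129. In limma 0 passed, and 3 (15.8%) had an unadjusted p under 0.05, against 10.9% of all units. For 8 structural partners (4 higher, 4 lower), or 42.1%, the groups did not overlap, against 17.6% of all units. Nid1, nidogen 1 of the basement membrane, differed by -0.16 (limma adjusted p = 0.220), Col3a1, type III collagen, by -0.10 (0.371), and Col4a1, type IV collagen of basement membranes, by 0.12 (0.391). Nid1 passed with an intensity trend and robust variance together (0.00612).

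Genes of the signalling pathways that regulate matricellular genes did not pass either. Of 20 measured TGF-beta pathway and response genes 12 were positive and 8 negative, with a median of 0.0174 and 0 called in limma. An unadjusted limma p under 0.05 was reached by 4 (1 higher, 3 lower), or 20%, against 10.9% of all units. In 8 of these genes (5 higher, 3 lower), or 40%, the groups did not overlap, against 17.6% of all units. Tgfbr3, the coreceptor betaglycan, differed by -0.20 (SE 0.04, limma adjusted p = 0.177), Tgfb2, a ligand, by 0.14 (0.250), and Ltbp2, a latent TGF-beta binding protein family member, by -0.14 (0.301). Tgfbr3 passed with an intensity trend and robust variance together (0.0274) and with a filter at the median (0.0399). Of 20 YAP and TEAD pathway and response genes 14 were positive and 6 negative, with a median of 0.0133 and 0 called. Here 3 (1 higher, 2 lower), or 15%, had an unadjusted limma p under 0.05, against 10.9% of all units. In 5 (3 higher, 2 lower), or 25%, the groups did not overlap, against 17.6% of all units. Tead4, a TEAD factor of muscle cells, differed by 0.12 (limma adjusted p = 0.376), Crim1 by -0.10 (0.387), and Lats2, a Hippo kinase, by -0.11 (0.443).

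Markers of muscle were present, and 9 of the 12 read higher in the mean with H19 siRNA, though 0 were called. They averaged between 10.29 and 10.31 on the control arrays and between 10.36 and 10.40 on the H19 siRNA arrays, and this average was not tested. In limma 8 of 12 had an unadjusted p under 0.05 (6 higher, 2 lower), against 10.9% of all units. For 9 muscle markers (7 higher, 2 lower), or 75%, the groups did not overlap, against 17.6% of all units. This list too was chosen with earlier results of these data known. The myogenic regulators Myod1 and Myog differed by 0.23 and 0.22 (limma adjusted p = 0.0965 and 0.0779), while Mef2c and Myh8 lay below the controls on all H19 siRNA arrays, with differences of -0.10 and -0.11 (0.353 and 0.309). Fibroblast markers (7 measured of 8) averaged 7.004 to 7.037 and 6.979 to 7.008 (control first), endothelial markers (6) 5.63 to 5.64 and 5.57 to 5.78, macrophage markers (6) 5.81 to 5.85 and 5.77 to 5.82, and adipocyte markers (5 of 6) 5.53 to 5.62 and 5.57 to 5.75. Of the 7 fibroblast markers 4 had a positive and 3 a negative difference, with a median of 0.0331. Among the negative ones Pdgfra, a receptor of fibroblasts and mesenchymal progenitors, had all H19 siRNA values below the controls. Its difference was -0.25 (SE 0.07, limma adjusted p = 0.268). Pi16 also lay below the controls on all H19 siRNA arrays (-0.19, limma adjusted p = 0.345). Dpt and Dpep1 differed by 0.12 and 0.11 (limma adjusted p = 0.692 and 0.499). Of the endothelial and adipocyte markers 0 lay at or above the median of all units, of the macrophage markers 1 and of the fibroblast markers 2. Of the muscle markers 10 lay there, all but Mef2c and Myh8. The part of these marker differences in the Fbln7 result was not tested, and in bulk RNA fewer cells of a type and less RNA per cell cannot be told apart.

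The genes whose 6 centred log2 values lay nearest to those of Fbln7, by Euclidean distance, were Kcnmb4os1, an antisense transcript, Chchd10, a mitochondrial protein gene, Vmn1r50, a vomeronasal receptor gene, C1qtnf3, a secreted C1q and TNF-related protein gene, and Klf10, a TGF-beta-inducible transcription factor gene. Their distances ran from 0.0276 to 0.0704 log2 units over the 6 arrays, and their differences were 0.30 (Kcnmb4os1), 0.31 (Chchd10), 0.27 (Vmn1r50), 0.30 (C1qtnf3) and 0.26 (Klf10). These genes were picked for this likeness, so the values are a description. Kcnmb4os1 and Vmn1r50 lay below the median level of all units.

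Across the processing alternatives, Fbln7, Tgfbi, Tnc and Thbs2 kept their signs. Their differences ran from 0.27 to 0.31 (Fbln7), from -0.24 to -0.20 (Tgfbi), from 0.14 to 0.18 (Tnc) and from -0.15 to -0.11 (Thbs2). Fbln7 passed in 5 of the 15 alternatives, Tgfbi in 2, Tnc in 2 and Thbs2 in 0, where its lowest limma adjusted p was 0.0517.

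**Figure D4:**
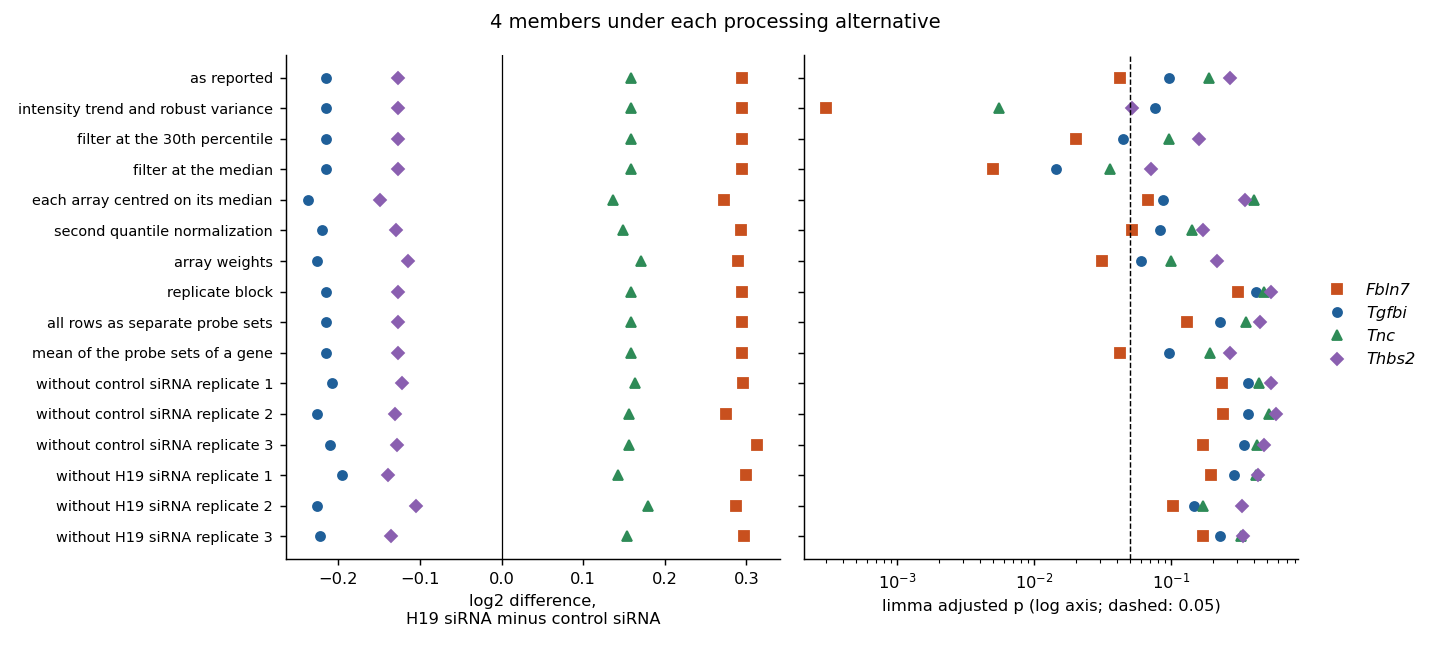
Left, log2 difference (H19 siRNA minus control siRNA), and right, limma adjusted p on a log axis, for Fbln7, Tgfbi, Tnc and Thbs2 as reported and under each of 15 alternatives. Differences keep their sign and close to their size, which the variance model, filters, block and row choice could not change. The adjusted p of Fbln7 crosses 0.05 (dashed) in both directions.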

How the data were processed

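The authors deposited log2 values of expression for each probe set. Per the submitters' processing notes they used RMA and Affymetrix Expression Console, whose version is not given in the sources used. RMA corrects background, normalises by quantiles and summarises probes, which compresses differences near background. The 35556 rows spanned 2.97 to 14.6, with array medians from 6.73 to 6.78. No scanner file or detection call entered, and the number of arrays limits precision.

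Names come from the platform annotation at GEO: 21789 had 1 symbol, 1621 several, and 12146 were not listed. The brightest probe set stood for a gene and multi-symbol probe sets stayed as unnamed units, 21559 in all. The comparison used limma 3.58.1 (lmFit and eBayes in R 4.3.3), a two-sided test with no covariate or filter. Adjustment was by Benjamini-Hochberg over all units. The fit was first tried on simulated data with differences larger than that of any member, so the simulation does not cover effects of the members' size. Members and the 11 gene lists were chosen with earlier results of these data known. Named genes are the members, the H19 locus probe set, up to 3 genes with the smallest p per pathway list, and the 5 profiles nearest to the member with the smallest p, with predicted genes and clone names passed over. Cd36, Ccn5, Ccn6 and the genes named from the marker lists fall outside this rule. Ratio pairs were added after the values were seen. Alternatives covered variance model, level filters, scaling, array weights, replicate block, row choice and leaving out each array.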

Additional observations from a re-analysis of the deposited data

How the results depend on the processing

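The count of called units, 43 as reported, was 435 when an intensity trend and robust variance were used together, 111 and 266 with filters at the 30th percentile and the median, 70 with array weights, 11 over all rows and 3 with the replicate number as a block. Leaving out 1 array gave between 1 and 21. Of the 10 members 1 was called as reported, 2 with that trend and robust variance (Fbln7 and Tnc), 2 with a filter at the 30th percentile (Fbln7 and Tgfbi), 3 with a filter at the median (these 3 genes), and 0 with each array centred on its median, with a second quantile normalisation, over all rows or with the replicate block. Leaving out any 1 array gave 0. The causes of these moves were not tested; leaving out an array also leaves fewer degrees of freedom. The labels do not say whether the replicate numbers pair the arrays. Deviations of same-numbered arrays correlated at -0.02, -0.13 and -0.14, which shows no sign of pairing but cannot exclude it with 3 arrays per group. With the block Fbln7 had a limma adjusted p of 0.307. Thbs1 alone changed sign among the members, to -0.0130 with median centring and -0.0088 with a second quantile normalisation. The groups did not overlap for 5 of 10 members under those 2 scalings, against 7 as reported. The median difference of the members ran from 0.0133 to 0.0443 over the 15 alternatives. Each array centred on its median moved the median of all units from 0.0137 to -0.0087.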
